A study of Mus musculus with 16 samples.

Results

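Immediate early genes are switched on within minutes of synaptic activity, without new protein synthesis. The 10 described here, Fos, Fosb, Junb, Egr1, Egr3, Arc, Nr4a1, Npas4, Homer1 and Bdnf, were taken by symbol from the 32285 genes of the deposited count matrices, and all 10 were found. They were read in 136828 hippocampal nuclei of 16 female mice aged 9 months, sequenced with the 10x Genomics 3' kit, 1 library per mouse. The labels give each mouse as Ch25h+/+ or Ch25h-/- and as Tau+ or Tau-, with 4 mice for every pairing of the 2 genotypes, and they name no other allele, agent or treatment. Ch25h encodes cholesterol 25-hydroxylase, an interferon-induced enzyme that makes 25-hydroxycholesterol. The labels do not name the tau line, its promoter or the Ch25h allele, and replicates are numbered in the order of deposit. The study's title places CH25H between STING and interferon signalling and tau pathology. The comparisons below therefore address whether tau, loss of Ch25h or both moved activity-dependent transcription in each neuron class.

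Calcium entry through NMDA receptors and voltage-gated channels signals to the transcription factors CREB, SRF and MEF2, which act on these genes. Most of the products are transcription factors that act on a later wave of genes; Arc, Homer1 and Bdnf encode proteins that act at the synapse. In the hippocampus their RNA marks recently active neurons, and dentate granule cells are known for firing sparsely. The labels mention no task or stimulus, so the values describe the level at tissue collection. RNA was taken from nuclei and counted from the 3' end, so a total for Homer1 does not tell its short activity-induced form, Homer1a, from the long forms, and a total for Bdnf does not tell its promoters apart.

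Libraries held about 51270800 to 84870600 unique molecular identifiers (UMIs, each 1 counted RNA molecule) and 7601 to 10567 nuclei kept, with a median of 3846 to 6508 UMIs before doublets were removed. Levels are CPM, the UMIs of a gene scaled to a common total in every library and class. Gm43049, an annotated transcript, was at 67.7 to 87.1 CPM over all nuclei in the 8 Tau+ libraries and 0.02002 to 0.207 in the 8 Tau- libraries. The labels do not name the tau line, so these levels are no independent check of the Tau labels. For Ch25h+/+ and Ch25h-/-, mean levels of Prnp were 122 and 127 CPM in Tau+ and 83.3 and 79.7 in Tau-. Those of Mapt were 435 and 481 CPM in Tau+ and 410 and 366 in Tau-. Ch25h mean levels were 0.474 ± 0.21 (SD, n = 4) CPM with Tau and 0.19 ± 0.0399 without it for the label Ch25h+/+, and 0.451 ± 0.111 and 0.352 ± 0.102 for the label Ch25h-/-. With 8 to 36 UMIs per library, its mean with the label Ch25h-/- was higher in Tau- and lower by less than the SD in Tau+. Whether the counted 3' reads lie inside the deleted part is not given in the sources used here, so the Ch25h labels were not checked by this gene. The first principal component of the libraries' deviations from their group means placed replicates 1 and 2 of every group on one side (set A) and replicates 3 and 4 on the other (set B), for 16 of 16 libraries in the 4 excitatory classes and 9 of 16 in inhibitory-like nuclei. The labels give no batch, so these are called 2 sets of libraries, and each result is given with them where it changes. Barcodes were hardly shared: any 2 libraries had 8 to 36 in common.

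Promoter sequences were available in RefSeq (GRCm38.p6) for 7 of the 10 genes; Egr1, Egr3 and Arc had no entry. The 250 bases before the start site were searched on both strands for TGACG, the core of the cyclic-AMP response element (CRE) that CREB binds. Windows of 5 genes are shown because their RNA is compared across libraries below; capitals mark each core, which reads CGTCA where it lies on the opposite strand.
Fos promoter: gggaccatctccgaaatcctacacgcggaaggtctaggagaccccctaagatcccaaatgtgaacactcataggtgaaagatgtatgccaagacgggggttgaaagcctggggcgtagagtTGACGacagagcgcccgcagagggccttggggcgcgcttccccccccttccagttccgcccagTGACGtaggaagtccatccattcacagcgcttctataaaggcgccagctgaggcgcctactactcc
Npas4 promoter: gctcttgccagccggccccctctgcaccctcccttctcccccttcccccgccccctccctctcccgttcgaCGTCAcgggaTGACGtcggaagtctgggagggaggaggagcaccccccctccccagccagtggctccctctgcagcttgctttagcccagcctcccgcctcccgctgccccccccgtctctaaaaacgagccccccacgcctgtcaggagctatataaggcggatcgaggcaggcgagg
Nr4a1 promoter: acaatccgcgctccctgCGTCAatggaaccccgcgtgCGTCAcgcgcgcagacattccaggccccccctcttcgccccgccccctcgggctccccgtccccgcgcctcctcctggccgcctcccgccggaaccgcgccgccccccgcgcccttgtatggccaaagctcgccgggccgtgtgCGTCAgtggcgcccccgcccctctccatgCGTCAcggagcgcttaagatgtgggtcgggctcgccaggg
Homer1 promoter: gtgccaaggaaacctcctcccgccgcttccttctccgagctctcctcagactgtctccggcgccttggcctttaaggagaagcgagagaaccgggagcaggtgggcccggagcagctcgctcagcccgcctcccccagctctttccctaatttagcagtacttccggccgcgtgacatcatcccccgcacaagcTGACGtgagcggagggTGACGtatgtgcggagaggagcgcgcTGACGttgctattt
Junb promoter: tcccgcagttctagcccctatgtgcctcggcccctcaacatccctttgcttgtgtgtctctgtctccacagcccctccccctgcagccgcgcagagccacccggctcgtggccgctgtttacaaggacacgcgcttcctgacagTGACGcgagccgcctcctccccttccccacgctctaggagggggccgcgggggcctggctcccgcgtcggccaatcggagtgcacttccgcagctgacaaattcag

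These windows lie at chr12:85473640-85473889 for Fos, chr19:4989972-4990221 for Npas4 (reverse strand), chr15:101266596-101266845 for Nr4a1, chr13:93303507-93303756 for the first of 2 Homer1 start sites and chr8:84978749-84978998 for Junb (reverse strand), each written 5′ to 3′ along its gene. Fos held 2 cores, beginning 129 and 66 bases before the start site. Npas4 held 2, at 179 and 169 bases. Nr4a1 held 4 and Homer1 3, the latter at 56, 40 and 14 bases. Junb and Fosb held 1 each, at 106 and 60 bases. Of 7 Bdnf start sites only the third had a core, 35 bases before it, and the second Homer1 start site had none. Over 32851 promoters of the same length, 17.8% held at least 1 core, 3.9% at least 2 and 0.688% at least 3. The full palindrome TGACGTCA, in 1.55% of promoters, was in none of the 14 windows; the site GCGGGGGCG, which EGR proteins bind, was in those of Fosb and Nr4a1 and in 2.57% of all promoters. The AP-1 site TGACTCA, bound by FOS and JUN proteins, was in none of the windows and in 4.46% of all promoters, and the core of the serum response element was in none and in 1.47%. A match describes letters in the sequence and was not tested as a binding site.

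The genes themselves lie, in GENCODE M21 on GRCm38, at chr12:85473890-85477273 (forward strand) for Fos, chr7:19302696-19310051 (reverse strand) for Fosb, chr8:84974484-84978718 (reverse strand) for Junb, chr14:70077203-70082614 (forward strand) for Egr3, chr15:74669083-74672570 (reverse strand) for Arc and chr15:101254269-101274795 (forward strand) for Nr4a1. Npas4 lies at chr19:4984355-4990316 (reverse strand), Homer1 at chr13:93299635-93405129 (forward strand) and Bdnf at chr2:109674700-109727007 (forward strand), and Egr1 is on chromosome 18. Junb overlaps Prdx2 on the opposite strand, Bdnf overlaps Gm45346 on the opposite strand, and Homer1 overlaps Gm47075 and Gm47088 on its own strand. Whether the authors' counting used strand is not given in the sources used here. It is therefore not known here whether reads in the overlaps on opposite strands were told apart. Strand does not separate the overlaps of Homer1.

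Levels of all 10 genes differed between neuron classes in the same mice. Nuclei were grouped by expression with the 10 genes and 32 other early response genes left out of the clustering, and clusters were named from markers: 21910 nuclei were DG-like (dentate granule), 7113 CA3-like, 11842 CA1-like, 19336 other-excitatory-like and 10475 inhibitory-like. Arc, whose protein moves AMPA receptors off the synapse, was at 30.2 ± 11.2 CPM (SD, n = 16 libraries) in CA1-like, 24.5 ± 8.78 in other-excitatory-like, 11.2 ± 2.47 in CA3-like, 2.91 ± 2.03 in inhibitory-like and 2.39 ± 0.884 in DG-like nuclei. All 16 libraries read more Arc in CA3-like than in inhibitory-like nuclei, and the ranges did not overlap; inhibitory-like exceeded DG-like in only 7 of 16, so these 2 do not differ beyond their spread. Npas4, a neuron-specific transcription factor induced by calcium entry, was at 20.4 ± 11.1 CPM in CA1-like, 17.3 ± 6.99 in other-excitatory-like, 8.1 ± 2.7 in CA3-like, 7.83 ± 3.72 in inhibitory-like and 1.8 ± 1.23 in DG-like nuclei. The CA3-like and inhibitory-like levels of Npas4 did not separate (9 of 16 libraries higher in CA3-like), and DG-like was the lowest in all 16.

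Of the excitatory classes, DG-like nuclei were also the lowest for the EGR and NR4A zinc-finger factors. Egr1 was at 28.8 ± 8.79 CPM in other-excitatory-like, 22.3 ± 7.004 in CA1-like, 11.2 ± 4.66 in inhibitory-like, 6.74 ± 2.11 in CA3-like and 2.87 ± 0.969 in DG-like nuclei. Nr4a1, an orphan nuclear receptor, was at 69 ± 20.7, 46.6 ± 16.3, 23.9 ± 10.3, 20.7 ± 5.24 and 4.71 ± 1.78 CPM in the same classes. Its CA3-like level was 4.39 times its DG-like level, and the 16 values of the 2 classes did not overlap. Egr3, a related zinc-finger factor, was lower in inhibitory-like nuclei (2.37 ± 1.45 CPM) than in DG-like (7.31 ± 1.7), CA3-like (9.68 ± 2.63), other-excitatory-like (15 ± 5.7) and CA1-like nuclei (15 ± 5.8). The last 2 classes did not differ beyond their spread, with CA1-like higher in 9 of 16 libraries.

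Among the AP-1 components, Fos was at 9.78 ± 5 CPM in other-excitatory-like, 7.61 ± 4.1 in inhibitory-like, 6.47 ± 4.17 in CA1-like, 2.7 ± 1.52 in CA3-like and 1.18 ± 0.902 in DG-like nuclei. Fosb, whose stable splice form ΔFosB builds up with repeated activity, was at 3.19 ± 1.97, 1.37 ± 1.09, 2.58 ± 1.9, 1.46 ± 0.745 and 1.14 ± 1.003 CPM in the same classes. The 3 lowest Fosb levels did not separate: CA3-like exceeded inhibitory-like in 9 of 16 libraries and inhibitory-like exceeded DG-like in 8. Junb was at 41.9 ± 16.3 CPM in CA1-like, 37.9 ± 16 in other-excitatory-like, 19.2 ± 5.93 in CA3-like, 14.9 ± 5.05 in DG-like and 13.9 ± 4.57 in inhibitory-like nuclei. Its last 2 values did not separate (higher in DG-like in 9 of 16).

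Homer1, a postsynaptic scaffold protein, was at 294 ± 104 CPM in CA1-like, 236 ± 86.8 in other-excitatory-like, 204 ± 50.6 in CA3-like, 97.6 ± 24.9 in inhibitory-like and 84.7 ± 18.1 in DG-like nuclei. Bdnf, the neurotrophin that signals through TrkB, had another order among excitatory classes. It was at 81.1 ± 13.5 CPM in DG-like, 48.4 ± 8.41 in CA3-like, 38.5 ± 13.6 in CA1-like, 26.7 ± 7.65 in other-excitatory-like and 2.28 ± 0.972 in inhibitory-like nuclei. DG-like exceeded CA3-like in 16 of 16 libraries by 1.68 times on the means. Bdnf was the only one of the 10 whose DG-like level was the highest of the 4 excitatory classes; the other 9 were lowest there. These orders are descriptions of classes that share libraries.

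**Figure D1:**
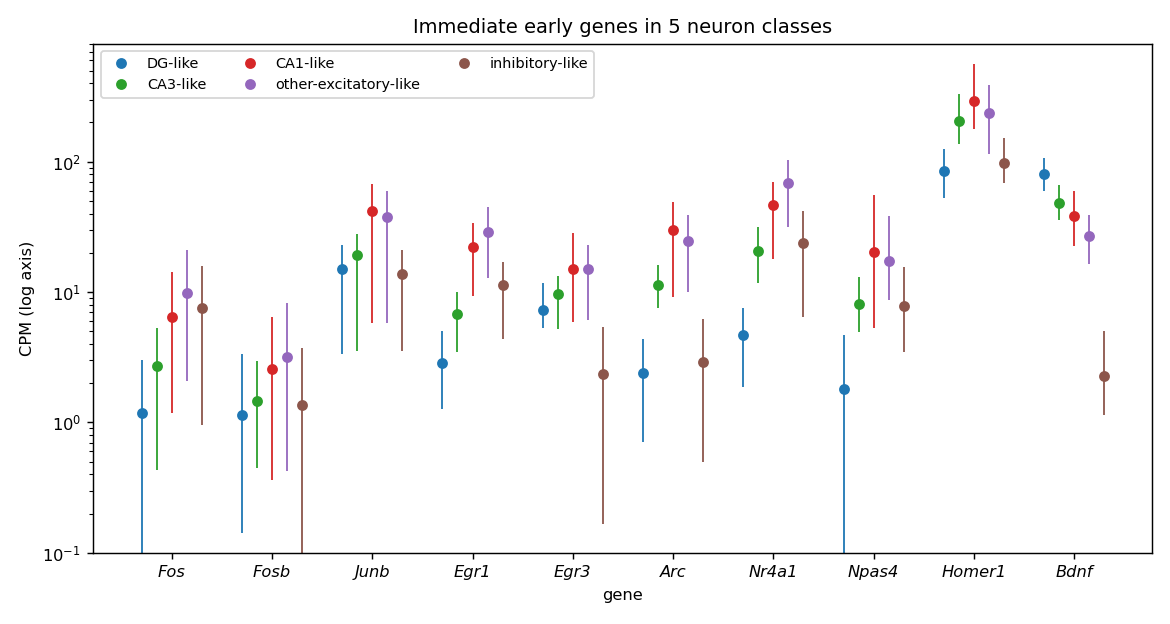
CPM (log axis) of the 10 genes in the 5 neuron classes; points are means over 16 libraries and lines run from the lowest to the highest library, ending at the axis where the lowest library read under 0.1. The blue DG-like points are the lowest excitatory level of 9 genes and the highest of Bdnf.

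RNA released from broken cells enters every droplet, so the share of each level that this free RNA could account for was estimated from barcodes under 100 UMIs. In CA1-like nuclei it was 0.991 to 5.05% for the 10 genes. In DG-like nuclei it reached 57.8% for Arc, 43.2% for Egr1, 37.5% for Fos, 36.8% for Npas4 and 33% for Nr4a1, against 1.9% for Bdnf and 4.74% for Homer1. The low DG-like levels are therefore upper values for what granule nuclei themselves held. The markers behind the estimate disagreed: their middle range for all UMIs ran from 2.22 to 7.4% in DG-like and from 1.56 to 7.36% in CA1-like nuclei, so free RNA could be more than the values given. In inhibitory-like nuclei free RNA could account for 97.4% of Bdnf and 69.8% of Arc, and for 9.04% of Fos. It rests on marker genes of other classes, and the share of all UMIs used was 2.78% in DG-like and 1.97% in CA1-like nuclei.

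Outside neurons, Junb was high in microglia-like nuclei, at 72.4 ± 26.9 CPM, above its CA1-like level, and free RNA could account for 13.2% of it. JUNB is a component of AP-1 in myeloid cells as well as in neurons. Its share of microglia-like nuclei with at least 1 UMI was 10.2% at a median of 1449 UMIs, and 1.3% in oligodendrocyte-like nuclei at a median of 1558. With every nucleus thinned to 1500 UMIs the shares were 8.59% and 0.956%, leaving out 3106 and 10606 shallower nuclei. Fos was at 9.16 ± 5.84 CPM in astrocyte-like nuclei, with 12.5% accounted for by free RNA. Nr4a1 in OPC-like (oligodendrocyte precursor) nuclei was at 19.9 ± 8.93 CPM, of which 44.1% could be free RNA. Egr3, Npas4 and Fosb in astrocyte-like, OPC-like and oligodendrocyte-like nuclei were at levels of which free RNA could account for 84.6 to 100%, and they are read as background. By this estimate Arc did not follow this in oligodendrocyte-like nuclei: it was at 12.3 ± 3.12 CPM there, above its DG-like level, and free RNA could account for 43.2% of it, against 100% of its 2.26 ± 1.54 CPM in astrocyte-like nuclei. With no doublets removed the astrocyte-like Arc level was 5.6 CPM and the oligodendrocyte-like one 15.1. The markers behind the estimate disagreed in these classes too. Their middle range for all UMIs was 7.98 to 30.4% in oligodendrocyte-like, 5.19 to 35.6% in astrocyte-like and 6.44 to 70.2% in OPC-like nuclei. It was 8.13 to 19.1% in microglia-like nuclei. The shares used were 9.71%, 7.1%, 15.2% and 9.88%, so free RNA could be more than the values given.

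Pooled over all libraries, fibroblast-like nuclei (2897, from 3 to 389 per library) read 17 CPM of Fos, 33.1 of Egr1, 38.8 of Junb and 37.6 of Nr4a1, and 1.6 of Arc and 0.641 of Npas4. Mural-like nuclei (398) read 79.3 CPM of Junb from 36 UMIs. These classes have no spread over libraries here because some libraries held 3 nuclei.

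How many nuclei of a class had a UMI differed widely between the genes. Homer1 was in 78.8% of CA3-like, 75.6% of CA1-like and 63.7% of other-excitatory-like nuclei. Median depth in these classes was 11855, 8369 and 7166 UMIs, and the order changed at equal depth. Thinned to 1500 UMIs per nucleus, the Homer1 shares were 23.6%, 29.5% and 24.4%. Nr4a1 was in 33.7% of other-excitatory-like nuclei and Bdnf in 32.7% of DG-like nuclei. The 4 transcription factors and Arc given next were in a smaller part of CA1-like nuclei. There, at a median of 8369 UMIs, 26% had a UMI of Nr4a1, 18.6% of Arc, 14.1% of Egr1, 11.2% of Npas4 and 3.97% of Fos. Oligodendrocyte-like nuclei were taken for comparison as a class outside neurons, though Fos, Egr1 and Nr4a1 were also read in other classes outside neurons. By the estimate used, free RNA could account for 43.2% of Arc, 63.5% of Fos and 71.6% of Nr4a1 there. At the upper end of the markers' range it could account for more. For the same genes in the same order, the shares there at their lower depth were 1.34%, 2.005%, 0.696%, 0.341% and 0.411%. Thinned to 1500 UMIs per nucleus, the CA1-like shares of Arc, Npas4 and Fos were 4.29%, 2.75% and 0.999%, the DG-like shares 0.313%, 0.216% and 0.193%, and the oligodendrocyte-like shares 1.67%, 0.278% and 0.376%. In astrocyte-like nuclei they were 0.326%, 0.167% and 1.2%. The DG-like shares of all 3 were below the oligodendrocyte-like ones. Free RNA could account for 57.8% of the DG-like level of Arc, 36.8% of Npas4 and 37.5% of Fos, so these low shares were not read further, either as expression or as background. Nuclei with 3 or more UMIs of Npas4 were 1.82% of CA1-like nuclei and held 42.4% of its UMIs there. In DG-like nuclei 0.0913% of nuclei held 37.5% of Npas4, with up to 12 UMIs in a nucleus. For Bdnf, DG-like and CA1-like shares after thinning were 10.9% and 5.42%.

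Nuclei that held several early genes at once were counted after thinning to 4000 UMIs, over the 8 genes other than Homer1 and Bdnf. Between 1.34 and 11.4% of a library's CA1-like nuclei and 0.865 to 10.4% of other-excitatory-like nuclei had UMIs of 3 or more of them, against 0.209 to 2.86% of CA3-like, 0 to 2.4% of inhibitory-like and 0 to 0.92% of DG-like nuclei. In CA1-like nuclei the group means were 5.76 ± 2.45% (SD, n = 4) for Tau- and 7.56 ± 2.49% for Tau+ with Ch25h+/+, and 5.12 ± 4.37% for Tau- and 5.53 ± 4.01% for Tau+ with the label Ch25h-/-. The groups overlapped. The 4 libraries labelled Ch25h-/- Tau- ran from 1.34% (replicate 3) to 11.4% (replicate 1), and Ch25h-/- Tau+ replicate 4 was at 11.2%. Without thinning the group means were 12.4%, 16.1%, 11.1% and 14.3% in the same order; thinning left out 149 to 370 nuclei per group. A count of genes cannot tell more active nuclei from more RNA in each.

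The values by library show how much mice of 1 group differed. CA1-like and DG-like nuclei are given in full; all 10 genes averaged 10 or more UMIs per library there. Npas4 read 22.6, 18.8, 18 and 16.9 CPM in Ch25h+/+ Tau- replicates 1 to 4 and 20.02, 27.3, 24.2 and 20.5 in Ch25h+/+ Tau+. Npas4 values labelled Ch25h-/- were 28.2, 18, 5.29 and 11.8 CPM in Tau- and 14.9, 12.2, 12.4 and 55.5 in Tau+. One library, Ch25h-/- Tau+ replicate 4, stood apart from its group, at 377 UMIs. Fos read 11.1, 4.13, 5.78 and 4.63 CPM in Ch25h+/+ Tau- replicates 1 to 4 and 7.4, 12.5, 11 and 4.92 in Ch25h+/+ Tau+. Fos values labelled Ch25h-/- were 10.9, 4.32, 1.17 and 2.53 CPM in Tau- and 4.85, 2.52, 1.58 and 14.3 in Tau+. The same library was the highest of its group for Fos, and all 4 groups overlapped. Arc read 41.3, 27.5, 29.7 and 27.2 CPM in Ch25h+/+ Tau- replicates 1 to 4 and 29.4, 48.9, 32.9 and 28.5 in Ch25h+/+ Tau+. Arc values labelled Ch25h-/- were 44.7, 26.4, 9.1 and 14.4 CPM in Tau- and 33.5, 22.4, 19.8 and 46.8 in Tau+. The lowest Arc values were in replicates 3 and 4 labelled Ch25h-/- Tau-, both of set B. These 2 libraries also stood apart in their makeup. CA1-like nuclei, 306 and 523 in number, were 3.94% and 5.93% of their nuclei against 7.5% to 12.4% in the other 14 libraries, and oligodendrocyte-like nuclei 6.29% and 6.97% of their nuclei against 12.4% to 24.6% in the other 14 libraries. DG-like nuclei were 23.2% and 29.7% of their nuclei against 8.23% to 21% in the other 14 libraries. The part of this in the Arc values was not tested.

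Egr1 read 25.4, 18.5, 27.7 and 25.2 CPM in Ch25h+/+ Tau- replicates 1 to 4 and 25.4, 31.2, 23.9 and 20.2 in Ch25h+/+ Tau+. Egr1 values labelled Ch25h-/- were 32.1, 19.1, 9.4 and 12.8 CPM in Tau- and 18.4, 17.7, 16 and 34.1 in Tau+. Within Ch25h+/+ the 8 Egr1 values lay close together, and those labelled Ch25h-/- spread further on both sides of them. Egr3 read 28.5, 9.55, 19.7 and 13 CPM in Ch25h+/+ Tau- replicates 1 to 4 and 10.3, 20.4, 16.7 and 16.2 in Ch25h+/+ Tau+. Egr3 values labelled Ch25h-/- were 20.9, 14.6, 8.22 and 15.3 CPM in Tau- and 11.5, 5.93, 10.7 and 19.1 in Tau+. The Egr3 ranges of the 4 groups overlapped. Nr4a1 read 69.6, 41.6, 51.5 and 45.2 CPM in Ch25h+/+ Tau- replicates 1 to 4 and 51.1, 60.5, 56.5 and 36.2 in Ch25h+/+ Tau+. Nr4a1 values labelled Ch25h-/- were 68.3, 64.3, 17.9 and 19 CPM in Tau- and 49.8, 47.8, 21.9 and 44.5 in Tau+. Nr4a1, a nuclear receptor, was lower in set B than in set A on average in each of the 4 groups.

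Homer1 read 562, 222, 297 and 271 CPM in Ch25h+/+ Tau- replicates 1 to 4 and 229.7, 367, 269 and 319 in Ch25h+/+ Tau+. Homer1 values labelled Ch25h-/- were 438, 389, 201 and 246 CPM in Tau- and 319, 222, 177 and 182 in Tau+. The highest Homer1 value, in Ch25h+/+ Tau- replicate 1, was far above the lowest, and the groups overlapped. Bdnf read 54, 25.4, 60.01 and 36.8 CPM in Ch25h+/+ Tau- replicates 1 to 4 and 28.6, 49.9, 47 and 38.5 in Ch25h+/+ Tau+. Bdnf values labelled Ch25h-/- were 56.6, 57.4, 24.1 and 24.9 CPM in Tau- and 35.2, 26.3, 22.5 and 29.6 in Tau+. The 4 Bdnf ranges overlapped, and that labelled Ch25h-/- Tau+ was the narrowest. Junb read 46, 51.6, 5.78 and 24.2 CPM in Ch25h+/+ Tau- replicates 1 to 4 and 54.7, 67.4, 46.3 and 36.2 in Ch25h+/+ Tau+. Junb values labelled Ch25h-/- were 58.4, 28.7, 30.5 and 26.8 CPM in Tau- and 60.1, 35.5, 41.6 and 56.5 in Tau+. Junb in Ch25h+/+ Tau- replicate 3 stood apart, as described below. Fosb read 3.39, 1.996, 1.02 and 1.02 CPM in Ch25h+/+ Tau- replicates 1 to 4 and 2.36, 6.41, 2.62 and 4.75 in Ch25h+/+ Tau+. Fosb values labelled Ch25h-/- were 5.88, 2.09, 0.881 and 1.55 CPM in Tau- and 1.4, 0.89, 0.365 and 4.71 in Tau+. Fosb rested on 3 to 51 UMIs per library, and its groups overlapped.

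**Figure D2:**
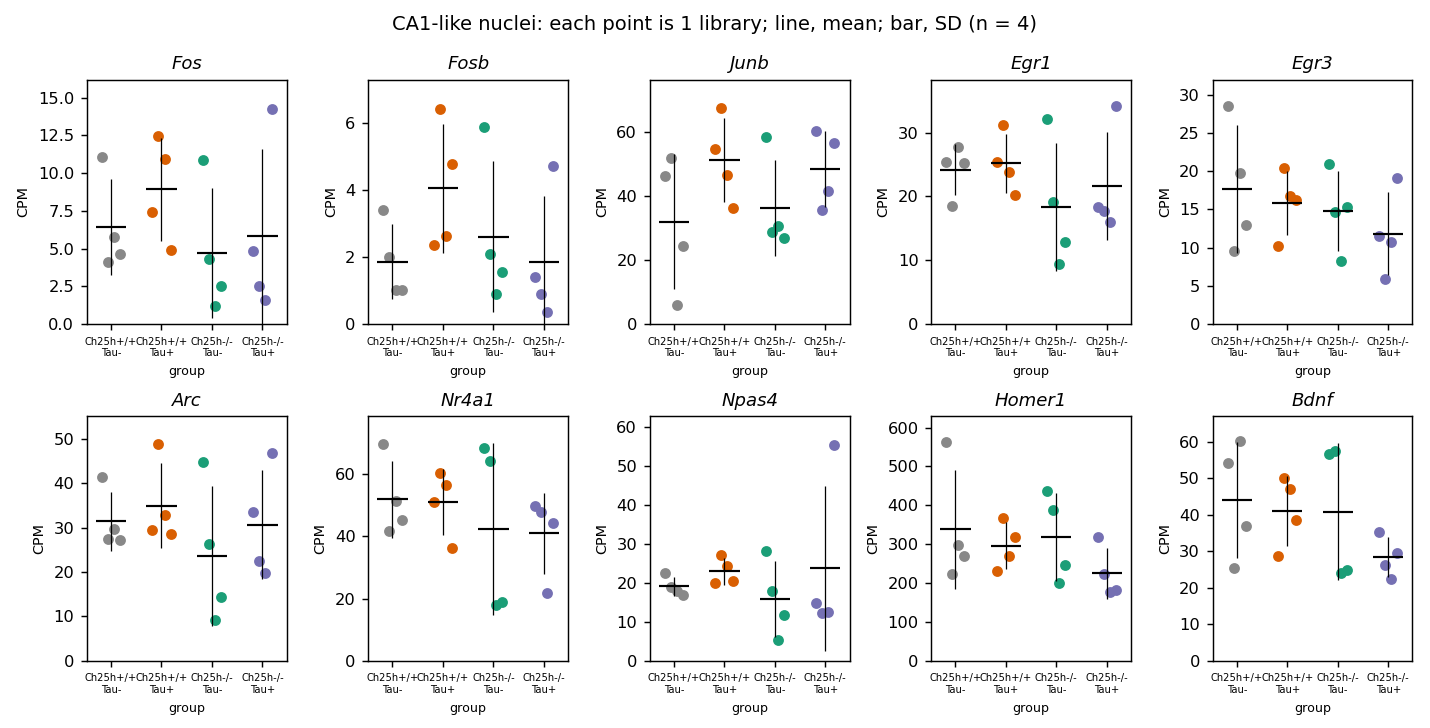
CPM of the 10 genes in CA1-like nuclei by group; points are libraries (replicates 1 to 4 from left to right), lines are means and bars the SD (n = 4), cut at 0. All 4 groups overlap for each gene, and Npas4 in 1 library of Ch25h-/- Tau+ lies above all others.

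In DG-like nuclei most of the genes rested on few UMIs. Bdnf read 84.8, 79.7, 92.3 and 73.7 CPM in Ch25h+/+ Tau- replicates 1 to 4 and 90.1, 64.5, 98.6 and 65.3 in Ch25h+/+ Tau+. Bdnf values labelled Ch25h-/- were 67.9, 107, 82.4 and 84.9 CPM in Tau- and 60.01, 96.5, 73.2 and 76.4 in Tau+. Bdnf, the growth factor gene with the most UMIs here beside Homer1, varied little between mice and its groups overlapped. Homer1 read 115, 77, 84.9 and 76.8 CPM in Ch25h+/+ Tau- replicates 1 to 4 and 73.6, 95.7, 83.7 and 89 in Ch25h+/+ Tau+. Homer1 values labelled Ch25h-/- were 93.4, 125, 69.5 and 86.1 CPM in Tau- and 94.6, 74.9, 53.1 and 62.7 in Tau+. Homer1 groups overlapped as well. Junb read 13.6, 16.1, 3.35 and 12.1 CPM in Ch25h+/+ Tau- replicates 1 to 4 and 16.2, 22.9, 14.1 and 9.84 in Ch25h+/+ Tau+. Junb values labelled Ch25h-/- were 13.8, 12, 16.1 and 10.6 CPM in Tau- and 17, 22.2, 17 and 22.3 in Tau+. Junb was lowest in Ch25h+/+ Tau- replicate 3, as in CA1-like nuclei. Egr3 read 5.26, 5.58, 11.8 and 6.46 CPM in Ch25h+/+ Tau- replicates 1 to 4 and 5.72, 7.17, 7.14 and 6.49 in Ch25h+/+ Tau+. Egr3 values labelled Ch25h-/- were 8.29, 9.47, 8.05 and 8.24 CPM in Tau- and 6.93, 6.31, 5.71 and 8.32 in Tau+. The highest Egr3 value was in that same library.

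The remaining 6 genes had the fewest UMIs in DG-like nuclei. Fos read 0.611, 0.519, 2.3 and 0.472 CPM in Ch25h+/+ Tau- replicates 1 to 4 and 0.818, 1.67, 1.76 and 0.419 in Ch25h+/+ Tau+. Fos values labelled Ch25h-/- were 2.76, 1.54, 0.464 and 1.14 CPM in Tau- and 0.504, 0.841, 0 and 2.996 in Tau+. The Fos values of the 4 groups overlapped. Fosb read 0.611, 0.519, 0.837 and 0.787 CPM in Ch25h+/+ Tau- replicates 1 to 4 and 0.818, 3.34, 1.21 and 0.419 in Ch25h+/+ Tau+. Fosb values labelled Ch25h-/- were 2.56, 3.3, 0.774 and 1.14 CPM in Tau- and 0.378, 0.631, 0.143 and 0.832 in Tau+. For Fosb, whose product pairs with JUN proteins, 3 libraries were above all others. Npas4 read 1.34, 2.08, 2.93 and 0.787 CPM in Ch25h+/+ Tau- replicates 1 to 4 and 0.701, 1.67, 3.08 and 0 in Ch25h+/+ Tau+. Npas4 values labelled Ch25h-/- were 2.56, 3.3, 0.851 and 1.77 CPM in Tau- and 1.39, 1.05, 0.571 and 4.66 in Tau+. The Npas4 groups overlapped. Egr1 read 1.96, 2.73, 4.08 and 2.83 CPM in Ch25h+/+ Tau- replicates 1 to 4 and 2.1, 3.002, 2.97 and 1.26 in Ch25h+/+ Tau+. Egr1 values labelled Ch25h-/- were 3.68, 3.63, 2.86 and 3.3 CPM in Tau- and 2.14, 2.94, 1.43 and 4.99 in Tau+. The Egr1 ranges overlapped. Arc read 2.45, 2.6, 2.72 and 1.57 CPM in Ch25h+/+ Tau- replicates 1 to 4 and 2.45, 2.84, 2.75 and 2.09 in Ch25h+/+ Tau+. Arc values labelled Ch25h-/- were 4.4, 3.3, 1.16 and 1.96 CPM in Tau- and 2.4, 1.68, 0.713 and 3.16 in Tau+. Arc was at most a small part of its CA1-like level in every library. Nr4a1 read 6.11, 3.76, 5.34 and 2.52 CPM in Ch25h+/+ Tau- replicates 1 to 4 and 3.27, 6.67, 6.92 and 3.98 in Ch25h+/+ Tau+. Nr4a1 values labelled Ch25h-/- were 7.16, 7.49, 1.86 and 3.87 CPM in Tau- and 5.17, 4.63, 2.57 and 3.99 in Tau+. The Nr4a1 groups overlapped too.

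None of the 10 genes passed the test between genotypes in a neuron class. Each was tested in 5 classes and 7 contrasts, 350 tests in all, and 0 had an adjusted p under 0.05 by edgeR; 18 (5.14%) had an unadjusted p under 0.05, beside 5.03% over all genes, and DESeq2 called 0 of 348. The lowest adjusted p was 0.264. All genes together gave few calls as well. Among all genes, the share called was 0.0213% for the tau effect (Tau+ minus Tau-) in Ch25h+/+, 0.0691% for that in the libraries labelled Ch25h-/-, 0.00665% for Ch25h loss (Ch25h-/- minus Ch25h+/+) in Tau+ and 0.00532% in Tau-. It was 0.0532% for tau over both Ch25h genotypes, 0.016% for Ch25h loss over both tau states and 0% for the interaction, the difference between the 2 tau effects. With shares this low, 0 of 50 early gene tests per contrast is no result about these genes. Several contrasts share groups. The labels do not say more of how the mice were bred. The p-values weigh each difference against the spread between these mice, estimated over all 16 libraries.

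For tau over both Ch25h genotypes (8 against 8 libraries), the log2 fold changes of the 50 tests had a median of -0.15, with 17 above 0 and 33 below, beside 0.00266 for all genes. The median absolute value was 0.27 for the 10 genes and 0.09 for all genes, and the standard errors ran from 0.11 to 0.601. Bdnf in DG-like nuclei had the tightest estimate, -0.11 (SE 0.11, 95% interval -0.35 to 0.12, adjusted p = 0.86, edgeR). Homer1 was below 0 in 5 of 5 classes, from -0.43 to -0.07, and Bdnf in 5 of 5, from -0.35 to -0.098. Nr4a1 was below 0 in 5 of 5 as well, from -0.37 to -0.03. Junb was above 0 in 5 of 5, from 0.296 to 0.54, with 1 Tau- library far below the others; without it the 5 values ran from 0.14 to 0.37. In CA1-like nuclei Npas4 was at 0.38 (SE 0.35, 95% interval -0.38 to 1.15, adjusted p = 0.796, edgeR) and Arc at 0.23 (SE 0.29, 95% interval -0.38 to 0.85, adjusted p = 0.86, edgeR). These intervals leave room for changes of either sign. The Npas4 value rests in part on Ch25h-/- Tau+ replicate 4, at 55.5 CPM against 12.2 to 14.9 in the rest of its group. That library was also the highest of its group for Arc.

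For Ch25h loss over both tau states the 50 log2 fold changes had a median of -0.15, 13 above 0 and 37 below, beside -0.00179 for all genes, and 0 had an unadjusted p under 0.05. Fosb, Arc, Nr4a1 and Homer1 were each below 0 in 5 of 5 classes, and Junb was above 0 in 4 of 5. The 5 classes share mice, so the signs are not independent. Arc was at -0.27 (SE 0.29, 95% interval -0.88 to 0.35, adjusted p = 0.9999, edgeR) in CA1-like nuclei, Homer1 at -0.23 (SE 0.23, 95% interval -0.73 to 0.28, adjusted p = 0.9999, edgeR) and Egr1 at -0.28 (SE 0.23, 95% interval -0.76 to 0.203, adjusted p = 0.9999, edgeR). Bdnf in DG-like nuclei was at 0.001 (SE 0.11, 95% interval -0.23 to 0.24, adjusted p = 0.9998, edgeR). In the libraries labelled Ch25h-/- the tau effect had a median of -0.23 over the 50 tests, against -0.02 in Ch25h+/+, and the interaction a median of -0.205, with 0 of 50 called. The handling and heat-shock genes had class medians of -0.39 to -0.24 for tau in the libraries labelled Ch25h-/- and -0.15 to -0.101 in Ch25h+/+, and their part in the early genes' values was not tested.

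**Figure D3:**
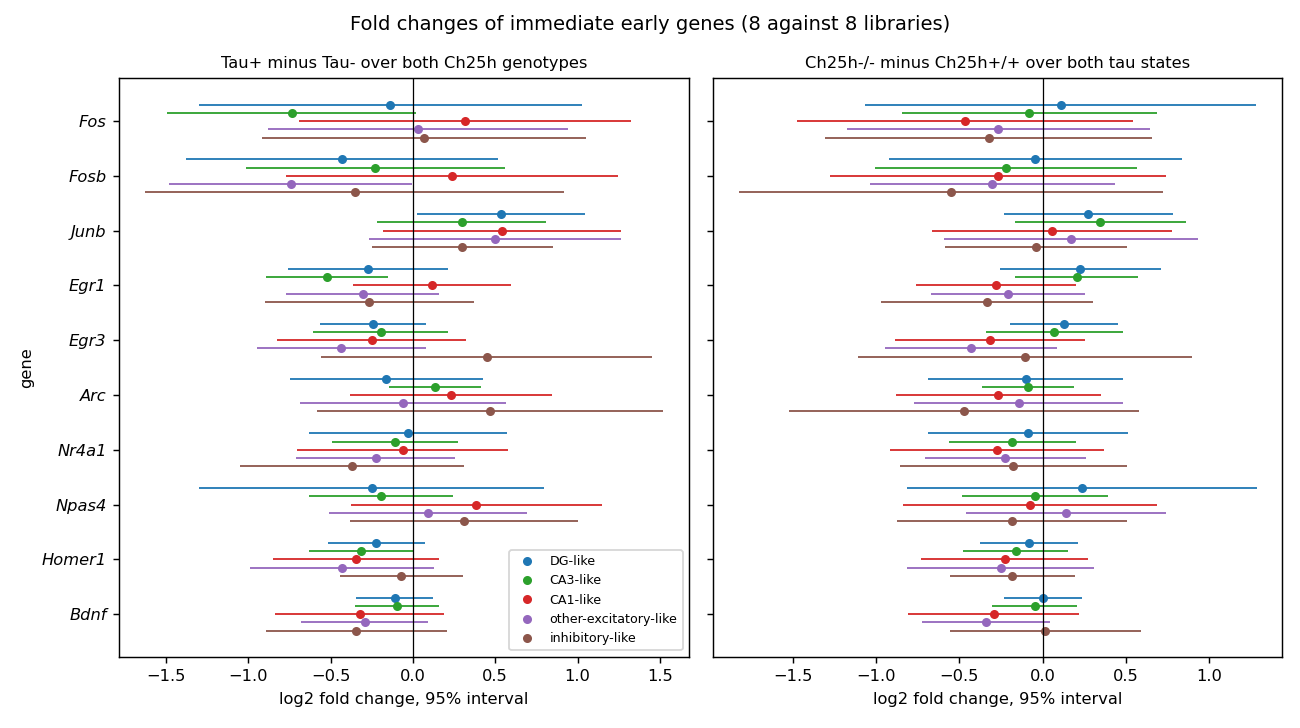
Log2 fold change of each gene (points, with 95% interval) for tau and for Ch25h loss, each over 8 against 8 libraries, in 5 neuron classes. All but 3 of the 100 intervals cross 0, and none of the tests had an adjusted p under 0.05.

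Some of the genes with low unadjusted p-values or without overlap are given by library; they were chosen after their values were seen, and all failed the adjustment. Egr1 in CA3-like nuclei read 4.6, 4.9997, 3.49 and 5.36 CPM in replicates 1 to 4 of Ch25h+/+ Tau+ and 8.54, 9.07, 8.76 and 6.43 in Ch25h+/+ Tau-. The 4 Tau+ values lay below the 4 Tau- values, at a log2 fold change of -0.85 (SE 0.26, 95% interval -1.39 to -0.31, adjusted p = 0.922, edgeR). Fos read 1.53, 1.67, 2.13 and 2.03 CPM in replicates 1 to 4 of Ch25h+/+ Tau+ and 4.83, 5.26, 2.5 and 2.46 in Ch25h+/+ Tau-, at -1.07 (SE 0.51, 95% interval -2.14 to 0.01, adjusted p = 0.922, edgeR). The Fos values did not overlap either, and these were the 2 of 50 class and gene pairs without overlap in that contrast (2.69% of all genes). In the libraries labelled Ch25h-/- the Egr1 values were 4.58, 5.52, 6.51 and 9.57 CPM in Tau+ and 8.71, 4.6, 7.04 and 10.1 in Tau-, and overlapped. Arc in CA3-like nuclei read 11.6, 14, 9.7 and 16.2 CPM in replicates 1 to 4 of Ch25h-/- Tau+ and 11.5, 8.32, 7.49 and 8.9 in Ch25h-/- Tau-, with Tau+ higher on average, at 0.55 (SE 0.19, 95% interval 0.16 to 0.94, adjusted p = 0.264, edgeR). Its interaction was 0.83 (SE 0.26, 95% interval 0.28 to 1.39, adjusted p = 0.914, edgeR).

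Fosb in other-excitatory-like nuclei read 1.6, 0.498, 0.423 and 3.09 CPM in replicates 1 to 4 of Ch25h-/- Tau+ and 6.1, 8.25, 2.24 and 2.99 in Ch25h-/- Tau-, a log2 fold change of -1.86 (SE 0.51, 95% interval -2.93 to -0.78, adjusted p = 0.61, edgeR). The groups overlapped, since replicate 4 of the first group was as high as the lower libraries of the other. In DG-like nuclei it read 0.378, 0.631, 0.143 and 0.832 CPM in replicates 1 to 4 of Ch25h-/- Tau+ and 2.56, 3.3, 0.774 and 1.14 in Ch25h-/- Tau-, at -1.88 (SE 0.61, 95% interval -3.17 to -0.59, adjusted p = 0.411, edgeR), and its interaction was -2.9 (SE 0.88, 95% interval -4.74 to -1.05, adjusted p = 0.9998, edgeR). DG-like Fosb rested on 1 to 30 UMIs per library, so single nuclei weigh on it: 0.0456% of nuclei held 45% of its UMIs, with up to 17 in 1 nucleus. Junb in DG-like nuclei read 17, 22.2, 17 and 22.3 CPM in replicates 1 to 4 of Ch25h-/- Tau+ and 13.8, 12, 16.1 and 10.6 in Ch25h-/- Tau- and did not overlap, the 1 such pair of 50 in that contrast (4.77% of all genes); its log2 fold change was 0.59 (SE 0.33, 95% interval -0.11 to 1.3, adjusted p = 0.777, edgeR). In Tau+, Junb in CA3-like nuclei read 27.8, 20.4, 23.3 and 25.7 CPM in replicates 1 to 4 of Ch25h-/- Tau+ and 16.7, 19, 18.6 and 17.6 in Ch25h+/+ Tau+, also without overlap (1 of 50 pairs; 2.69% of all genes), at 0.48 (SE 0.34, 95% interval -0.24 to 1.2, adjusted p = 0.9997, edgeR). In the other 3 contrasts between groups no pair was without overlap, where 1.76%, 0.0904% and 0.0173% of all genes were. In each fit all libraries share 1 estimate of the spread, and Ch25h+/+ Tau- replicate 3 was far below the others in Junb. Without it the DG-like and CA3-like Junb values above stayed at 0.59 and 0.48. Their SE were 0.19 and 0.18 in place of 0.33 and 0.34 (adjusted p = 0.395 and 0.911, edgeR).

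Junb stood far below the others in 1 library. Over the 5 neuron classes summed, Ch25h+/+ Tau- replicate 3 read 4.51 CPM (153 UMIs), and the other 15 libraries 13.8 to 40.9 with a median of 27. It was the lowest of 16 in each of the 5 neuron classes, at 3.35 CPM in DG-like and 5.78 in CA1-like nuclei. In microglia-like nuclei it read 3.36 CPM, against 33.7 to 107 in the others. The library's place among the 16 for the 10 genes differed between classes. Its median rank, counted from 1 for the lowest, was 12 in DG-like, 10.5 in CA3-like, 10 in CA1-like, 7.5 in inhibitory-like and 7 in other-excitatory-like nuclei. It was among the 3 lowest for 3 of 10 genes in inhibitory-like nuclei and for 1, Junb, in each of the other 4 classes. Genes next to Junb were not low. Prdx2, which overlaps Junb, read 32.4 CPM against 25.7 to 32.2, Rnaseh2a 9.11 against 6.7 to 10.3 and Hook2 38.1 against 32.5 to 49.2. Without this library the Junb log2 fold change for tau in Ch25h+/+ was 0.32 (SE 0.34) in CA1-like nuclei, from 0.65 (SE 0.47) with it, and in CA3-like nuclei it turned to -0.15 from 0.16. For tau over both Ch25h genotypes in DG-like nuclei it was 0.37 (SE 0.15, adjusted p = 0.492) from 0.54 (SE 0.24). The library also had the highest median mitochondrial share of the 16, at 0.23% of a nucleus's UMIs against 0.025% to 0.107% in the others, and the part of this in its Junb level was not tested.

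**Figure D4:**
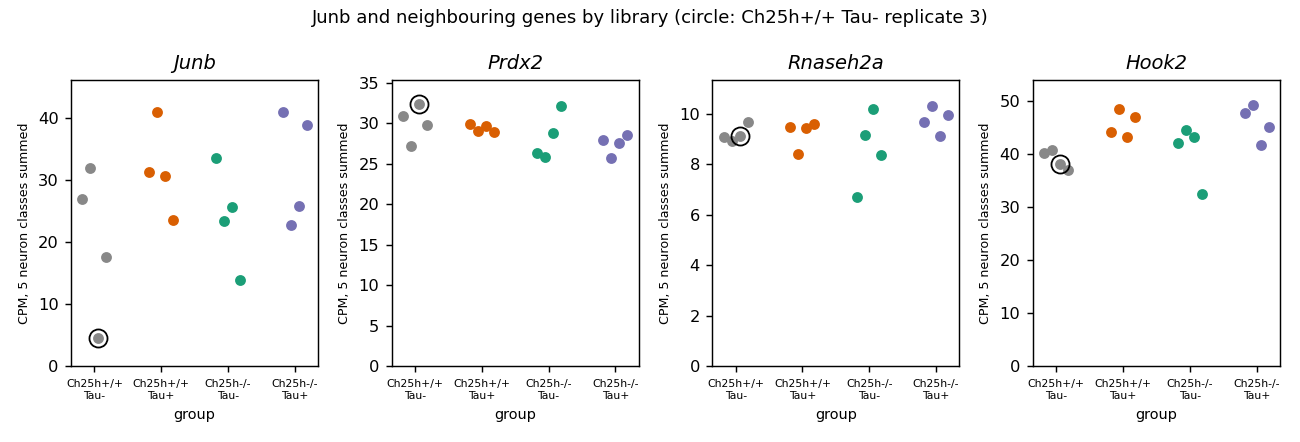
CPM of Junb and 3 neighbouring genes over the 5 neuron classes summed, 1 point per library, by group. The circled library reads 4.51 CPM of Junb, below the other 15, lies among them for Rnaseh2a and Hook2, and just above them for Prdx2.

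The spread between mice of a group was wide for these genes. In CA1-like nuclei the SD of log2 CPM within groups was 0.48 (Homer1) to 1.04 (Fos), and its median over the 14049 genes with at least 10 UMIs per library was 0.23. In DG-like nuclei Bdnf (0.25), Homer1 (0.305) and Egr3 (0.31) were near the median of 0.22 for 14547 genes, and Npas4 (1.32) and Fos (1.28) were far above it, on 15.7 and 10.2 UMIs per library. Genes with few UMIs have a larger SD from counting alone.

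Much of this spread was shared: a mouse high in one of these genes was mostly high in others, with Junb in 1 called pair. Correlations of log2(CPM + 1) were computed over the 16 libraries after each group mean was subtracted, for all pairs of the 10 genes in CA1-like and DG-like nuclei, 90 relations adjusted together, with 100000 permutations within groups. In CA1-like nuclei 44 of 45 pairs had r above 0, the median r was 0.69, and 26 pairs had an adjusted p under 0.05, all positive; 33 of 45 had r at or above 0.52, the lowest called. The cut-off of 0.52 was taken from these pairs, so the called ones reach it by definition, and the shares at it are descriptions. Over all pairs of 14049 genes averaging at least 10 UMIs per library the median r was 0.02, and 7.78% of pairs reached 0.52. Those genes were not matched in UMIs to the 10, which averaged 18 (Fosb) to 2024 (Homer1) per library here. The same holds for the share of all pairs in DG-like nuclei below, and the part of depth in these differences was not tested. The highest were Fos and Arc, at r = 0.93 (permutation p = 1.00e-05, adjusted 9.00e-04) and rho = 0.95 (permutation p = 2.00e-05, adjusted 0.0018). The p for r of this pair is the smallest that the permutations can give. Egr1 and Arc gave r = 0.92 (permutation p = 2.50e-04, adjusted 0.0027) and rho = 0.85 (permutation p = 6.20e-04, adjusted 0.0062), and Fos and Npas4 r = 0.91 (permutation p = 1.40e-04, adjusted 0.00252) and rho = 0.83 (permutation p = 8.30e-04, adjusted 0.00747). Without the 2 libraries farthest from the median of the first gene these r were 0.9, 0.82 and 0.81. Within set A they were 0.96, 0.901 and 0.86, and within set B 0.93, 0.97 and 0.95 (8 libraries each). The lowest was Junb and Bdnf, at r = -0.11 (permutation p = 0.796, adjusted 0.884) and rho = 0.04 (permutation p = 0.911, adjusted 0.934); without the 2 farthest libraries its r was 0.54, so its sign rests on them. Without them, r of Junb rose from 0.17 to 0.63 with Egr1, 0.097 to 0.64 with Egr3 and 0.39 to 0.71 with Arc. It rose from 0.26 to 0.62 with Homer1, 0.26 to 0.56 with Nr4a1 and 0.31 to 0.51 with Npas4. With Fos and Fosb, where libraries far in those genes were left out, r went from 0.37 to 0.26 and 0.52 to 0.48. In DG-like nuclei r of Junb with the other genes was -0.28 to 0.19 without 2 libraries.

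In DG-like nuclei 36 of 45 pairs had r above 0, the median was 0.37, and 19 pairs were called, all positive. Of the 45, 22 had r at or above the lowest called, 0.37, which 15.8% of all gene pairs reached. That cut-off too was taken from these pairs. Fos and Egr1 gave r = 0.897 (permutation p = 7.00e-05, adjusted 0.0021) and rho = 0.88 (permutation p = 1.50e-04, adjusted 0.0027), Fos and Npas4 r = 0.86 (permutation p = 2.00e-04, adjusted 0.00257) and rho = 0.88 (permutation p = 2.90e-04, adjusted 0.00371) and Egr1 and Npas4 r = 0.85 (permutation p = 6.30e-04, adjusted 0.00515) and rho = 0.79 (permutation p = 0.00267, adjusted 0.0141). Their r without the 2 farthest libraries were 0.81, 0.802 and 0.77. Within set A they were 0.69, 0.53 and 0.54, and within set B 0.95, 0.93 and 0.91. Bdnf, whose level was higher in this class than in the other neuron classes, was in no called pair there, with r from -0.14 to 0.33. In CA1-like nuclei Bdnf was called with Homer1, Nr4a1, Arc, Egr1, Egr3 and Fos, at r from 0.66 to 0.81. The lowest pair was Junb and Egr3, at r = -0.68 (permutation p = 0.162, adjusted 0.232) and rho = -0.4 (permutation p = 0.189, adjusted 0.254), with r = -0.28 without the 2 farthest libraries. The genes of a pair share library, depth and free RNA, which could account for much of Fos, Egr1 and Npas4 in this class; the part of free RNA in these correlations was not tested. When deviations were taken within group and set, the called pairs were 16 in CA1-like and 1 in DG-like nuclei with median r of 0.7005 and 0.47; of 256 arrangements the smallest p is 0.00781.

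**Figure D5:**
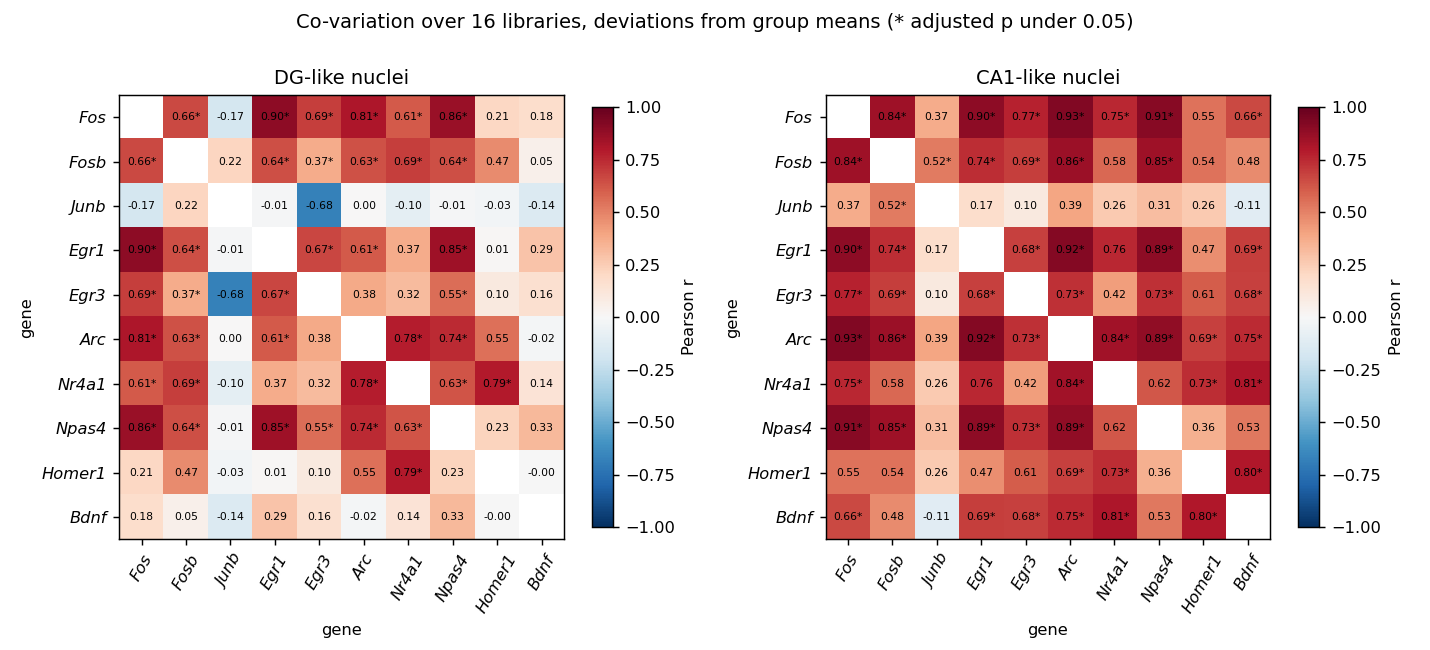
Pearson r over 16 libraries for each pair of the 10 genes in DG-like (left) and CA1-like (right) nuclei, after subtraction of group means; colour runs from -1 to 1 and stars mark an adjusted permutation p under 0.05. Most stars fall among Fos, Fosb, Egr1, Egr3, Arc and Npas4, and the Junb row holds 1.

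The 2 sets of libraries, which were drawn from expression itself, differed in these genes in part. In CA1-like nuclei 9 of 10 were higher on average in set A, with ratios of 0.98 to 1.55 and a median of 1.29; Nr4a1 (56.6 ± 10.4 CPM against 36.6 ± 15.2, SD, n = 8) and Homer1 (344 ± 121 against 245 ± 53.3) were higher in set A in 4 of 4 groups, as were 13.8% of all genes averaging 10 or more UMIs per library. The ranges of the sets overlapped. The number higher in set A was 8 of 10 in other-excitatory-like (median ratio 1.27), 7 in CA3-like (1.23), 6 in DG-like (1.12) and 6 in inhibitory-like nuclei (1.03), where none was higher in all 4 groups (13.3% of all genes). Of all such genes, 39.8% to 46.1% were higher in set A in the 5 classes, with median ratios of 0.96 to 0.99. Of the 12 handling and heat-shock genes, 8 were lower on average in set A in CA1-like nuclei (60.2% of all genes) and 8 to 10 over the 5 classes (all genes 53.9% to 60.2%). In CA1-like nuclei 4 were lower in set A in 4 of 4 groups, the chaperones Hspa5, Hsp90aa1, Hsph1 and Chordc1, as were 21.2% of all genes. Hsp90aa1 was at 37.3 ± 5.28 CPM in set A and 53.5 ± 12.4 in set B. The 2 sets are balanced over the groups, 2 libraries each, and their part in the spread was not tested. In set B alone, 5 tests of the 10 genes were called by edgeR and in set A alone 0. For tau over both genotypes they were Arc, Egr3 and Junb in inhibitory-like nuclei, higher in Tau+, where 5.83% of all genes were called. Junb for tau in Ch25h+/+ was also called in that class (4.09% of all genes). The last was Homer1 for Ch25h loss over both tau states in CA1-like nuclei, lower with the label Ch25h-/- (0.165%). In inhibitory-like nuclei the first principal component did not split the libraries by these 2 sets, as given above. Arc and Egr3 averaged 16.8 and 13.6 UMIs per library in that class, and free RNA could account for 69.8% and 41.4% of them.

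Other genes of the pathway were read from lists chosen with earlier results of these data known. Of 32 other early response genes (such as other AP-1, EGR and NR4A members, dual-specificity phosphatases and Gadd45 genes), 117 tests in the 5 classes passed the filter on low counts in each contrast, and 0 were called higher and 0 lower in any of the 7. Their class medians of the log2 fold change were -0.21 to 0.07 for tau over both Ch25h genotypes and -0.25 to -0.03 for Ch25h loss over both tau states, where the medians of all genes were near 0 (-0.001 to 0.01 for tau). Within 1 tau state or genotype the medians are given for CA1-like and other-excitatory-like nuclei, chosen after their values were seen. For Ch25h loss in Tau+ they were -0.504 and -0.43, with 6 of 24 and 3 of 28 genes above 0, and in Tau- -0.05 and 0.15, with 10 and 22 above 0. For tau they were -0.41 and -0.45 in the libraries labelled Ch25h-/- and 0.13 and 0.0999 in Ch25h+/+. The interaction medians were -0.47 and -0.54. The other 3 classes did not all go the same way. In DG-like, CA3-like and inhibitory-like nuclei the medians were -0.04, -0.15 and -0.21 for Ch25h loss in Tau+, -0.02, -0.08 and -0.01 in Tau-, 0.102, -0.25 and -0.11 for tau in the libraries labelled Ch25h-/-, 0.11, -0.204 and 0.02 in Ch25h+/+ and 0.02, 0.06 and -0.16 for the interaction. The handling and heat-shock genes lay below 0 in the same contrasts: in CA1-like and other-excitatory-like nuclei their medians were -0.22 and -0.34 for Ch25h loss in Tau+ and -0.27 and -0.33 for tau in the libraries labelled Ch25h-/-, with 0 of 10 and 0 of 9 genes above 0 in both. Their part in the shift was not tested. These contrasts share groups, and no gene of either list was called in any of them. Of 14 later activity-regulated genes of the second wave, 0 of 57 tests were called in either direction, with class medians of -0.21 to -0.07 for tau and -0.14 to 0.002 for Ch25h loss. For tau in the libraries labelled Ch25h-/- the class medians were -0.45 to 0.01, the lowest in other-excitatory-like nuclei (2 of 12 genes above 0), and -0.11 to 0.02 in Ch25h+/+; for Ch25h loss they were -0.24 to -0.02 in Tau+ and -0.07 to 0.09 in Tau-. Of 22 upstream regulators, the kinases, channels and factors that carry the signal to these genes, 0 of 110 were called, with medians of -0.03 to 0.0001 and -0.003 to 0.02. Of 12 handling and heat-shock genes 0 of 47 were called; their tau medians over both genotypes were -0.25 to -0.16, with 3 of 47 tests above 0, and their Ch25h medians -0.22 to -0.09. Markers of other cell types were summed in each library, and none was at 0 in any group. In CA1-like nuclei the 9 oligodendrocyte markers summed to 80.4 to 118 CPM over the 16 libraries, the 8 microglia markers to 70.8 to 119, the 8 astrocyte markers to 5.89 to 14.5 and the 7 endothelial markers to 9.25 to 32.2, with groups that overlapped. The 6 choroid plexus markers were high in 1 group, at 83.9 to 113 CPM in Ch25h+/+ Tau+ against 32.6 to 78.9 in Ch25h+/+ Tau-, 29.6 to 81.7 in Ch25h-/- Tau+ and 32.9 to 75.2 in Ch25h-/- Tau-. In DG-like nuclei the same sums were 81.3 to 123, 31.7 to 104, 29.96 to 102 and 33.7 to 81, and in CA3-like nuclei 59.7 to 83.2, 28.5 to 75, 30.6 to 62.6 and 25.1 to 60.2. Their part in the group differences of the early genes was not tested.

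The genes with the most similar pattern over the 14 named cell classes were found by Pearson r of log2(mean CPM + 1), among 17800 genes with at least 5 CPM in a class; classes share libraries, so this is a description. For Egr1 they were Nr4a1 (r = 0.84), Scube1 (r = 0.84) and Man2a1 (r = 0.83), and for Nr4a1 Gm47715 (r = 0.87), Gm41414 (r = 0.85) and Egr1 (r = 0.84); these 2 were among each other's nearest 20, and Junb was also among those of Egr1. For Homer1 they were Plk2 (r = 0.93), Exosc9 (r = 0.92) and Camk4 (r = 0.91), and for Bdnf Nrgn (r = 0.96), Neurod2 (r = 0.94) and Icam5 (r = 0.94). For Fos they were Gm765 (r = 0.797), Sept6 (r = 0.78) and Rgs16 (r = 0.75), with Egr1 among its nearest 20, and for Fosb Gm44644 (r = 0.97), Banf2 (r = 0.94) and Gm47095 (r = 0.93), with Npas4 among its nearest 20. Npas4 was most like Gm44644 (r = 0.92), Gm34544 (r = 0.91) and Gm15997 (r = 0.897) and Arc like Gm13211 (r = 0.89), A630023P12Rik (r = 0.88) and Wnt2 (r = 0.87). Egr3 was most like Slc26a4 (r = 0.93), Abca17 (r = 0.92) and Hpcal4 (r = 0.91) and Junb like Nsd3 (r = 0.85), Kcnj12 (r = 0.85) and Sub1 (r = 0.85), and neither had one of the 10 among its nearest 20.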

How the data were processed

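The authors deposited raw UMI counts of 16 libraries, with every barcode included. Per the submitters' processing notes they used Cell Ranger 3.1.0 and mm10; the file headers name Cell Ranger 4, and whether intronic reads were counted is not given in the sources used here. Version 3.1 of the 10x 3' kit was used, per the labels' protocols. Nuclei had at least 500 UMIs, at least 300 genes and at most 5% mitochondrial UMIs (147873 barcodes); Scrublet scores were computed per library and the top 0.8% per 1000 nuclei removed, 11045 in all. Nuclei were clustered (scanpy 1.11.5; 3000 variable genes without the 10 genes and the other early response genes, 50 components, 20 neighbours, Leiden resolution 1) and named from markers: at least 3 at 2-fold, more than of any other class, and at least 40% of the list for DG, CA1 and CA3, a threshold set after seeing the data. Clusters stayed unnamed if more markers of another class than of their own were among the 10 leading genes, if shallow with no marker there, or if over 50% doublets. Of clusters with 3 or more markers and not mostly doublets, these rules kept 3 out of CA1-like (2.07 to 2.85%, 0.554 to 0.875% and 0.349 to 0.453% of nuclei, group means), 1 out of CA3-like (0.453 to 0.629%) and 1 out of inhibitory-like (0.353 to 0.418%). Counts were summed per library and class; edgeR 4.0.16 (TMM, filterByExpr, quasi-likelihood, robust) fitted all 4 groups, with two-sided p adjusted by Benjamini-Hochberg over all genes of a class and contrast at 0.05, and DESeq2 1.42.0 as an alternative. The edgeR and permutation code was tested on simulated data. All 10 genes are named; other genes of a list only if called, and values by library were to be in full for every class with a mean of at least 10 UMIs; they are printed so for CA1-like and DG-like nuclei, and as mean and SD elsewhere. The 10 genes, the lists and the tests were chosen with earlier results of these data known. No column of the files lacked a sample.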

Additional observations from a re-analysis of the deposited data

Results flagged for a closer look

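Within groups of 4 libraries, 192 combinations of gene, neuron class and group with at least 10 UMIs per library were searched for a library far from the other 3, where its gap to the nearest, divided by the whole range, passed the 95% critical value of Dixon's test for 4 values. Of these, 13 were found, and chance gives about 1 in 20. The values are on the CPM scale. In DG-like nuclei Fos was at 2.3 CPM (22 UMIs) in Ch25h+/+ Tau- replicate 3, above the other 3 at 0.472 to 0.611. In DG-like nuclei Egr3 was at 9.47 CPM (86 UMIs) in the group labelled Ch25h-/- Tau- replicate 2, above the other 3 at 8.05 to 8.29. In CA1-like nuclei Junb was at 58.4 CPM (477 UMIs) in the group labelled Ch25h-/- Tau- replicate 1, above the other 3 at 26.8 to 30.5. In CA1-like nuclei Egr1 was at 34.1 CPM (232 UMIs) in the group labelled Ch25h-/- Tau+ replicate 4, above the other 3 at 16 to 18.4. In CA1-like nuclei Npas4 was at 55.5 CPM (377 UMIs) in the group labelled Ch25h-/- Tau+ replicate 4, above the other 3 at 12.2 to 14.9. In CA3-like nuclei Npas4 was at 12.8 CPM (78 UMIs) in the group labelled Ch25h-/- Tau- replicate 1, above the other 3 at 4.95 to 6.09. In other-excitatory-like nuclei Junb was at 27.9 CPM (265 UMIs) in Ch25h+/+ Tau+ replicate 4, below the other 3 at 52 to 54.3. In other-excitatory-like nuclei Nr4a1 was at 100.3 CPM (840 UMIs) in Ch25h+/+ Tau- replicate 1, above the other 3 at 65.6 to 69.7. In other-excitatory-like nuclei Npas4 was at 11.5 CPM (133 UMIs) in Ch25h+/+ Tau- replicate 4, below the other 3 at 17.3 to 17.6. In other-excitatory-like nuclei Homer1 was at 300.1 CPM (4114 UMIs) in the group labelled Ch25h-/- Tau+ replicate 1, above the other 3 at 114 to 137. In inhibitory-like nuclei Fos was at 5.05 CPM (24 UMIs) in Ch25h+/+ Tau+ replicate 1, below the other 3 at 10.5 to 11.6. In inhibitory-like nuclei Nr4a1 was at 40.1 CPM (212 UMIs) in Ch25h+/+ Tau- replicate 1, above the other 3 at 18.6 to 22.2. In inhibitory-like nuclei Bdnf was at 2.4 CPM (14 UMIs) in the group labelled Ch25h-/- Tau+ replicate 1, above the other 3 at 1.29 to 1.38. Npas4 and Egr1 were high in the same library in CA1-like nuclei, and Nr4a1 in the same library in other-excitatory-like and inhibitory-like nuclei. The cause of these values was not tested.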

How the results depend on the processing

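The count of the 10 genes called was 0 in each of the 7 contrasts, and it was 0 with DESeq2, with RLE factors, with no filter on low counts, at 1000 UMIs per nucleus, with no doublets removed, at Leiden resolution 0.5, with the 4 excitatory classes summed, with only the groups compared in the fit (the 4 contrasts between 2 groups), with the library set as a covariate and in set A alone. It ran from 0 to 0 over the fits that left out each library in turn (lowest adjusted p = 0.158, edgeR). In set B alone, 2 libraries a group, the count was 1 for tau in Ch25h+/+, 3 for tau over both Ch25h genotypes and 1 for Ch25h loss over both tau states. These were, in inhibitory-like nuclei, Junb for tau in Ch25h+/+ at a log2 fold change of 1.5 (SE 0.34, adjusted p = 0.0352), and for tau over both genotypes Junb at 1.15 (SE 0.24, adjusted p = 0.0159), Egr3 at 1.81 (SE 0.47, adjusted p = 0.0486) and Arc at 2.14 (SE 0.41, adjusted p = 0.00808). In CA1-like nuclei it was Homer1 for Ch25h loss, at -0.55 (SE 0.09, adjusted p = 0.0466). In that subset 4.09%, 5.83% and 0.165% of all genes were called in those 3 tests. The Junb values include the library that is low in Junb. Inhibitory-like Arc and Egr3 averaged 16.8 and 13.6 UMIs per library, and free RNA could account for 69.8% and 41.4% of them. The cause of these calls was not tested. The number of co-varying pairs called, 45 of 90, was 17 with deviations within each library set, 46 with no doublets removed and 32 without the 2 farthest libraries; the first has only 256 arrangements. Of 150 recomputed levels in the 5 neuron classes, 1 moved by over 1 SD: Bdnf in inhibitory-like nuclei, 4.74 CPM with no doublets removed. In the 4 glial classes 20 of 120 did, all of them higher with no doublets removed (20 of the 40 levels in that setting), such as Homer1 in oligodendrocyte-like nuclei at 86.4 CPM from 46.8 and Nr4a1 in astrocyte-like nuclei at 10.7 from 4.35. No paired analysis was possible because the labels carry no replicate numbers, and those used here only follow the order of deposit. Depth limits Fos, Fosb, Npas4 and Arc in DG-like nuclei, with 10 to 20.4 UMIs per library on average. On counts simulated for DG-like nuclei and the tau effect in Ch25h+/+ (14915 genes), the test found 14.9% of genes changed 1.5 times, 58.2% at 2 times and 98.5% at 4 times. The simulation gave every gene the same spread between libraries beyond counting. Within groups, the SD of log2 CPM of the 10 genes in DG-like nuclei ran from 0.25 (Bdnf) to 1.32 (Npas4). The shares found were not estimated at the spread of each gene, and a wider spread lowers them.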

Other observations

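A cluster that the markers did not name read above the mean level of each of the 5 neuron classes for 9 of the 10 genes, all but Bdnf. It held 2778 nuclei and was led by Gm765, Gm13601, Igfn1 and Gm20752. Pooled over all libraries it read 537 CPM of Homer1, 108 of Nr4a1, 91 of Junb, 67 of Egr1, 56.4 of Arc, 40.1 of Egr3, 39.1 of Npas4 and 25.6 of Fos. Another unnamed cluster, of 547 nuclei led by Erg and Npsr1, read 112 CPM of Nr4a1. These nuclei entered no class test. The 10 genes were left out of the clustering, but genes that move with them were not, so the level of the cluster is a description.

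A cluster of 1405 nuclei led by Prl, Gabra6, Cnpy1 and Fat2, with Atf3 and Cdkn1a among its 10 leading genes, read 48.8 CPM of Fos, 38.6 of Arc and 71.7 of Junb. The markers did not name it, and whether its nuclei came from the hippocampus was not tested. A cluster of 317 nuclei led by Adgrl4, Flt1 and Cldn5, genes of blood vessel lining, read 86.8 CPM of Junb, 39.6 of Fos and 39.6 of Egr1, and 0 of Npas4.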
